A study of Mus musculus with 6 samples.

Results

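The genes described here are 10 RNA sensors and the signalling proteins that act directly with them: DDX58, IFIH1, DHX58, TRIM25, MAVS, TBK1, IKBKE, EIF2AK2, ZBP1 and ADAR. They were chosen by symbol from a table of 14915 genes, and all 10 were found in it. The study measured RNA by sequencing in the mouse melanoma line B16F10, with 3 libraries of wild-type (WT) cells and 3 of cells labelled ZBTB5-S127A. ZBTB5 is a DNA-binding protein with zinc fingers, and in S127A a serine of it is exchanged for alanine, which cannot be phosphorylated. All 6 libraries, WT included, came from cells given TNFα, an inflammatory cytokine, under amino acid limitation, so the comparison is one of genotypes in treated cells, and no response to TNFα was read. The labels do not say how many clones the S127A line holds, or whether the replicates are separate cultures, so each p-value measures the spread between these libraries, which may be technical.

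Cells detect viral or misplaced self RNA in the cytosol through helicases that bind double-stranded or uncapped RNA. RIG-I (the product of DDX58) and MDA5 (IFIH1) pass the signal to the mitochondrial adaptor MAVS, which engages the kinases TBK1 and IKKε (IKBKE), and these phosphorylate the factors that switch on type I interferon. A parallel group acts on the RNA or on the cell: PKR (EIF2AK2) stops translation, ZBP1 can start cell death, and ADAR edits adenosine to inosine in double-stranded RNA. Many of these genes are themselves interferon-induced.

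Values are TPM, a transcript abundance scaled for gene length and for the total of a library, so levels can be compared between genes. Means carry the SD of 3 libraries (n = 3). A change is given as the difference between the group means of log2(TPM + 1), S127A less WT, and was tested with limma over 10348 genes with a mean of at least 1 TPM and called at a Benjamini-Hochberg adjusted p under 0.05. The pseudocount of 1 makes this scale understate changes of low genes. TPM keeps no read depth, so no counting error could be given. In bulk samples, fewer cells of a type and less RNA per cell cannot be told apart.

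The S127A libraries differed from WT in most genes and in lineage markers. Of all tested genes, 90.0% passed the test. ZBTB5 itself had 15.5 ± 0.54 TPM in WT against 8.90 ± 0.569 in S127A, a level that does not read the substitution. The 10 melanocyte markers examined summed to between 18736 and 18903 TPM in WT and to between 114 and 123 TPM in S127A, and 10 of 10 were lower. SOX10, a regulator of the melanocyte lineage, went from 341 ± 4.64 to 0.603 ± 0.116 TPM. Of 10 fibroblast markers, all listed, the sum was 16.2 to 17.2 TPM in WT and 301 to 313 TPM in S127A. Of the 6 tested, 5 were higher, among them COL1A1 (0.587 ± 0.0896 to 10.7 ± 0.447 TPM), and 1 was lower. LUM and THY1 were at 0 in the 3 S127A libraries, but at most 0.06 and 0.07 TPM in WT. COL1A2 alone made up 275 ± 6.56 TPM of the S127A sum, and POSTN was lower there (7.79 ± 0.912 against 0.0667 ± 0.0231 TPM). Of 12 immune markers 9 were listed, with a sum of 8.26 to 9.12 TPM in WT and 54.4 to 59.0 TPM in S127A, while the leukocyte marker PTPRC reached at most 0.1 TPM in any library. Most of the S127A sum was CD14, at 45.1 ± 1.77 TPM against 0 in WT, and most of the WT sum was CD68, which was lower in S127A (7.64 ± 0.601 against 4.69 ± 0.409 TPM). The table lists 9 of 10 endothelial or epithelial markers, 8 of them below 1 TPM in every S127A library. Their sums were 1.37 to 1.76 TPM in WT and 63.5 to 64.3 TPM in S127A, of which KRT18 made up 62.8 ± 0.362 TPM. The labels name B16F10 for both groups, and whether the S127A libraries hold the same line as WT was not tested. An effect of the substitution and a difference of cell line or lineage cannot be told apart in these libraries, so each difference below is one between libraries labelled S127A and WT. The part of these markers in the results below was not tested.

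All 10 RNA sensors and adaptors were higher in S127A. Each passed the test, against 40.2% of all tested genes called higher, and none was lower, against 49.8% called lower. The members were chosen with earlier results of these data known, so the shares of all tested genes given here are not an independent comparison. For each of the 10 every S127A library lay above every WT library, as for 40.4% of all tested genes, whereas 49.8% had every S127A library below. Their log2 differences ran from 0.48 for TBK1 to 5.30 for ZBP1, with a median of 1.42 beside −0.12 for all tested genes, and 6 of 10 rose at least 2-fold on this scale against 15.5% of tested genes (19.9% fell as much). All 10 were also called higher with TMM factors (44.9% of tested genes higher, 44.8% lower), with quantile normalization (44.6% higher, 45.0% lower) and with columns brought to a common total (42.0% higher, 47.6% lower). The count of 6 depends on the scaling: with TMM factors the log2 differences of MAVS (1.01), PKR (1.08) and ADAR (1.05) also lay above 1. The share of all tested genes that rose at least 2-fold with TMM factors was not counted. The least affected were the shared adaptor MAVS and kinase TBK1, together with PKR and ADAR. By an exact two-sided permutation test on TPM each member had p = 0.1, the smallest that 3 against 3 allows.

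**Figure D1:**
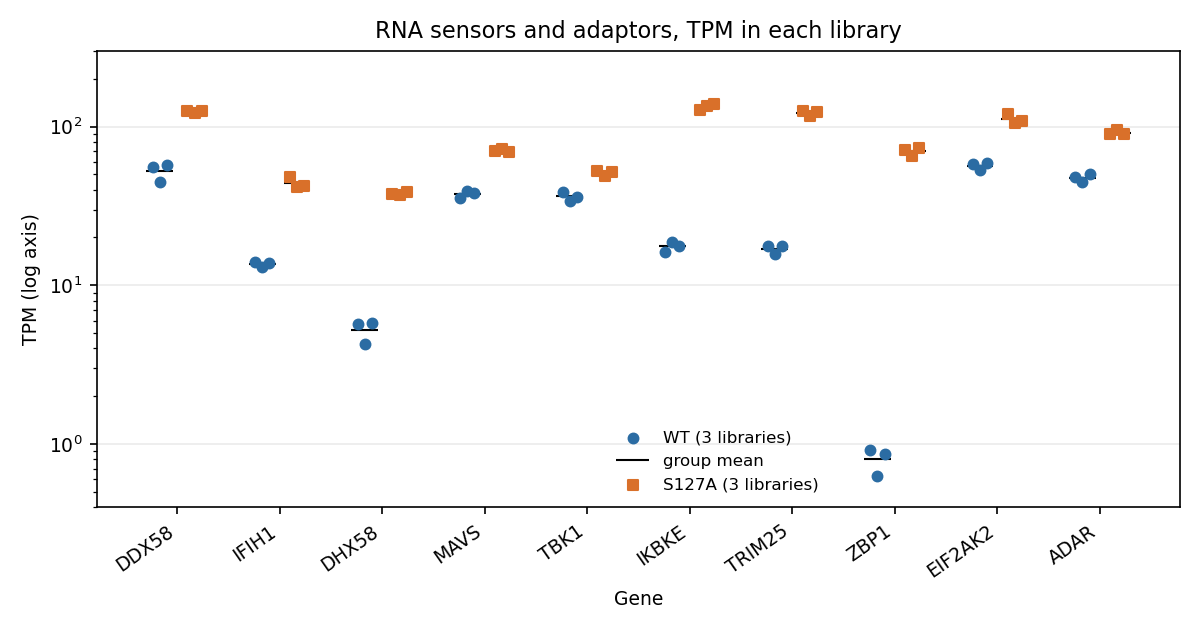
TPM on a log axis for each of the 10 genes, with 1 point per library (WT circles, S127A squares) and a bar at each group mean (n = 3 per group). The groups do not overlap for any of the 10 genes, and ZBP1 alone starts below 1 TPM in WT.

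Among the receptors, DDX58 was the most abundant. DDX58 (RIG-I; ENSMUSG00000040296.15, chromosome 4, 40203773 to 40239828, minus strand, mm10) recognises short double-stranded RNA and uncapped RNA ends. WT replicates 1, 2 and 3 had 55.5, 44.8 and 57.5 TPM, and the S127A replicates 124.9, 121.7 and 124.6 TPM. WT replicate 2 was the lowest library, and the S127A libraries were close together. The means were 52.6 ± 6.8 and 124 ± 1.73 TPM, a 2.35-fold ratio (log2 difference 1.23, SE 0.0759, adjusted p = 3.75e-08 by limma). DDX58 lies on the same chromosome as ZBTB5, 4.75 Mb from it.

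IFIH1 (MDA5; ENSMUSG00000026896.14, chromosome 2, 62595798 to 62646255, minus strand) senses long double-stranded RNA. Its WT libraries had 13.97, 12.98 and 13.80 TPM and its S127A libraries 47.9, 41.6 and 42.4 TPM, with replicate 1 the highest in both groups. The means of 13.6 ± 0.529 and 44.0 ± 3.39 TPM gave a 3.24-fold ratio (log2 difference 1.62, SE 0.0599, adjusted p = 4.35e-10).

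DHX58 (LGP2; ENSMUSG00000017830.15, chromosome 11, 100694884 to 100704271, minus strand) binds RNA like the other receptors but lacks the domains that contact MAVS, and modulates their signalling. Its WT libraries had 5.71, 4.24 and 5.81 TPM and its S127A libraries 37.5, 37.2 and 38.6 TPM. The rise from 5.25 ± 0.879 to 37.7 ± 0.747 TPM was 7.18-fold (log2 difference 2.64, SE 0.0916, adjusted p = 2.55e-10), and the low library was again WT replicate 2. An antisense gene, Dhx58os, overlaps 2637 bases of DHX58. Whether counting used strand is not given in the sources used here, so reads of the pair cannot be told apart.

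The 3 receptors together rose from 71.4 ± 8.19 to 205 ± 4.84 TPM, and the shares of DDX58 and LGP2 in that sum did not overlap between the groups. DDX58 made up 73.5% ± 1.18 of their sum in WT and 60.2% ± 0.725 in S127A. LGP2 made up 7.32% ± 0.424 and 18.4% ± 0.487. The MDA5 share was 19.1% ± 1.58 in WT and 21.4% ± 1.2 in S127A, with overlapping groups (20.9% in WT replicate 2, 20.6% in S127A replicate 3). These shares were not tested as such. That of LGP2 follows from its ratio to the sum of RIG-I and MDA5, which is compared below and did not pass (exact permutation test, adjusted p = 0.12).

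TRIM25 (ENSMUSG00000000275.16, chromosome 11, 88999376 to 89020293, plus strand), a ubiquitin ligase that activates RIG-I, had the third largest log2 difference of the 10. WT libraries had 17.68, 15.70 and 17.60 TPM and S127A libraries 126, 116 and 124 TPM, close to the level of DDX58. The means were 16.99 ± 1.12 and 122 ± 5.34 TPM, a 7.17-fold ratio (log2 difference 2.77, SE 0.0532, adjusted p = 1.95e-12).

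MAVS (ENSMUSG00000037523.13, chromosome 2, 131234063 to 131248025, plus strand), the adaptor on the mitochondrial outer membrane where the receptor signals converge, rose less than the receptors. WT libraries had 35.7, 39.02 and 38.00 TPM and S127A libraries 69.95, 71.7 and 69.5 TPM, with both groups narrow. The ratio of 37.6 ± 1.71 to 70.4 ± 1.14 TPM was 1.87-fold (log2 difference 0.89, SE 0.0418, adjusted p = 3.48e-09). Its 95% interval of 0.80 to 0.98 lay below the 1.06 to 1.40 of DDX58.

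Both kinases downstream of MAVS rose, by unequal factors. TBK1 (ENSMUSG00000020115.3, chromosome 10, 121546455 to 121586787, minus strand), the kinase found in most cells, had 38.95, 34.1 and 36.2 TPM in the WT libraries and 52.8, 48.9 and 51.5 TPM in the S127A libraries. Its rise from 36.4 ± 2.44 to 51.1 ± 1.99 TPM was 1.40-fold (log2 difference 0.48, SE 0.053, adjusted p = 6.11e-06), smaller than that of any other member, and 72.3% of tested genes had a smaller log2 difference.

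IKBKE (IKKε; ENSMUSG00000042349.13, chromosome 1, 131254343 to 131279606, minus strand), the related kinase known for its inducible expression, had 16.3, 18.8 and 17.8 TPM in the WT libraries and 127.15, 134 and 139 TPM in the S127A libraries, a wide gap beside the spread inside either group. It rose 7.55-fold, from 17.6 ± 1.27 to 133 ± 5.82 TPM (log2 difference 2.85, SE 0.0546, adjusted p = 1.91e-12). IKBKE was thus the sixth most abundant member in WT and the most abundant in S127A. The antisense genes Gm28914 and Gm28913 overlap 1047 and 3420 bases of it.

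EIF2AK2 (PKR; ENSMUSG00000024079.4, chromosome 17, 78852564 to 78882573, minus strand) is activated by double-stranded RNA and phosphorylates the translation factor eIF2. WT libraries had 58.3, 53.1 and 58.6 TPM and S127A libraries 119.66, 105 and 109 TPM, where replicate 1 was the highest. The means of 56.7 ± 3.11 and 111 ± 7.65 TPM gave a 1.96-fold ratio (log2 difference 0.96, SE 0.0548, adjusted p = 1.86e-08). The genes n-R5s29 and Gm26637 overlap 119 and 532 bases of EIF2AK2 on the opposite strand.

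ADAR (ENSMUSG00000027951.16, chromosome 3, 89715022 to 89753446, plus strand), the editing enzyme that keeps self double-stranded RNA from activating MDA5 and PKR, changed by almost the same factor. WT libraries had 48.1, 44.8 and 49.99 TPM and S127A libraries 90.3, 94.5 and 89.97 TPM, with no overlap. The ratio of 47.6 ± 2.61 to 91.6 ± 2.55 TPM was 1.92-fold (log2 difference 0.93, SE 0.0448, adjusted p = 4.29e-09). TPM per gene does not separate the interferon-inducible long form of ADAR from the constitutive short form. The Chrnb2 gene overlaps 7252 bases of ADAR on the opposite strand and moved the other way, from 3.78 ± 0.566 to 0.117 ± 0.0416 TPM.

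ZBP1 (ENSMUSG00000027514.14, chromosome 2, 173206612 to 173218923, minus strand), a sensor of left-handed Z-form nucleic acids that can trigger necroptosis, went from close to nothing to the level of MAVS. In WT it was listed at 0.92, 0.63 and 0.87 TPM, and its S127A libraries had 71.4, 65.2 and 73.2 TPM. The ratio of 0.807 ± 0.155 to 69.9 ± 4.22 TPM was 86.7-fold, and the log2 difference was 5.30 (SE 0.0766, adjusted p = 2.39e-13). At a WT mean under 1 TPM, the pseudocount sets much of the size on the log scale: it was 6.28 with a pseudocount of 0.1 and 3.69 with 5.

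**Figure D2:**
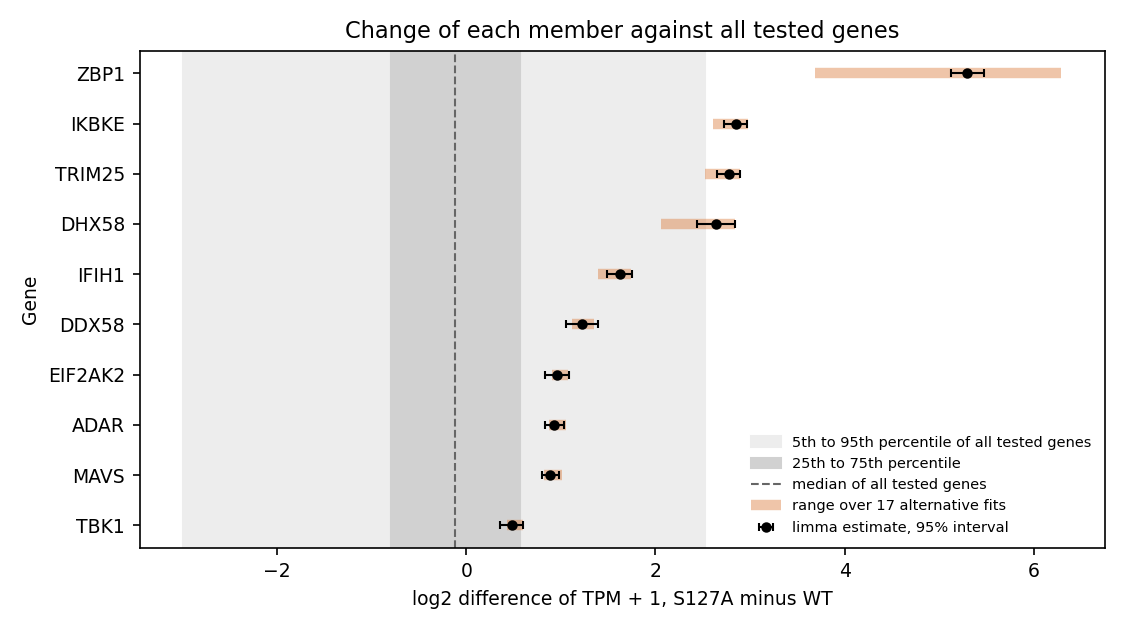
Log2 difference of TPM + 1 (S127A minus WT) for each gene, with the 95% interval from limma as bars and the range over 17 alternative fits as shaded bands. Grey areas show the percentiles of all 10348 tested genes, whose median was −0.12, and 9 of the 10 genes lie above the 75th percentile of 0.57.

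The order of the levels differed between the groups. In WT it was EIF2AK2, DDX58, ADAR, MAVS, TBK1, IKBKE, TRIM25, IFIH1, DHX58 and ZBP1. The ranges of 3 libraries overlapped for EIF2AK2 and DDX58, for DDX58 and ADAR, for MAVS and TBK1, and for IKBKE and TRIM25. Such overlap leaves the order of neighbours uncertain, but it does not compare them inside a library. EIF2AK2 was above DDX58 in each WT library, which was not tested. In S127A the order was IKBKE, DDX58, TRIM25, EIF2AK2, ADAR, MAVS, ZBP1, TBK1, IFIH1 and DHX58. There the overlapping neighbours were DDX58 and TRIM25, TRIM25 and EIF2AK2, and MAVS and ZBP1. TRIM25 was above EIF2AK2 in each S127A library, also not tested. The member means spanned 0.807 to 56.7 TPM in WT and 37.7 to 133 TPM in S127A.

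Ratios between members inside a library do not depend on how a library was scaled, and 6 were compared. The IKBKE to TBK1 ratio was 0.418, 0.553 and 0.492 in WT and 2.41, 2.74 and 2.70 in S127A, so IKBKE was below TBK1 in each WT library and above it in each S127A library. The ratio of LGP2 to the sum of RIG-I and MDA5 was 0.079 ± 0.00493 in WT and 0.225 ± 0.00729 in S127A. The sum of RIG-I and MDA5 relative to MAVS was 1.77 ± 0.251 in WT and 2.38 ± 0.0963 in S127A.

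The MDA5 to RIG-I ratio was 0.26 ± 0.0259 in WT and 0.355 ± 0.0243 in S127A. The ADAR to ZBP1 ratio was 60.3 ± 9.75 in WT and 1.31 ± 0.119 in S127A, the widest shift of the 6. For these 5 ratios the groups did not overlap, and the exact two-sided permutation p on log2 ratios was 0.1, the smallest possible, or 0.12 after adjustment over the 6, so none passed. The ADAR to PKR ratio was 0.841 ± 0.014 in WT and 0.827 ± 0.0734 in S127A, with overlapping groups (exact permutation p = 0.8). Leaving out S127A replicate 1 turned the small log2 difference of that ratio from −0.0269 to 0.0377.

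**Figure D3:**
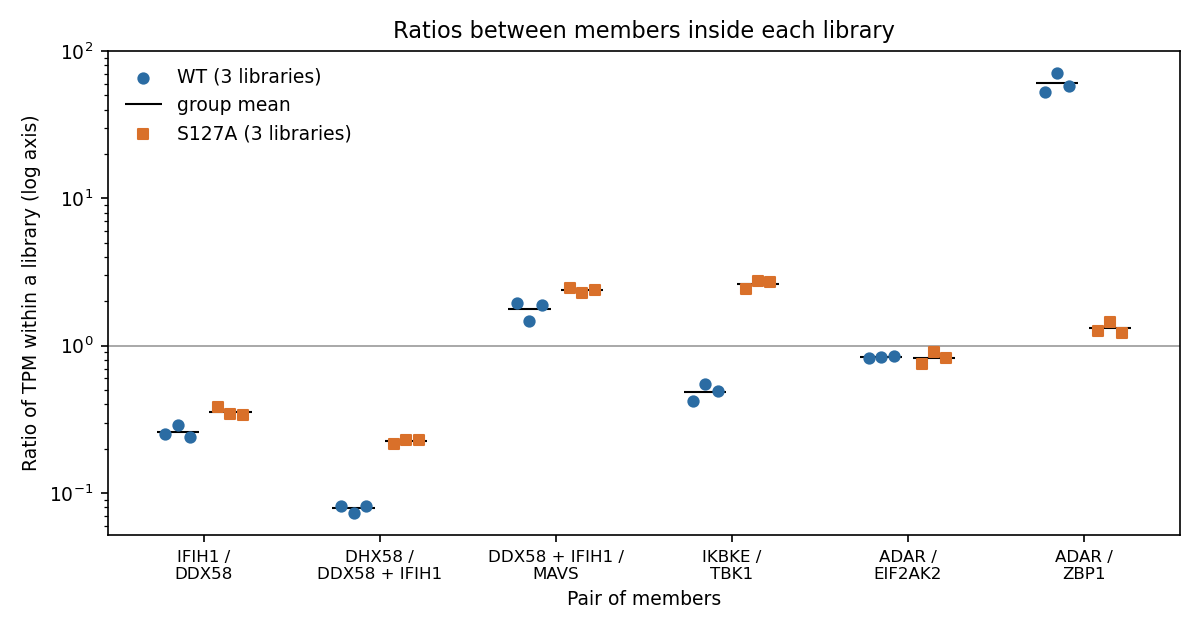
Ratio of TPM between members inside each library on a log axis, with 1 point per library and a bar at the group mean (n = 3 per group). IKBKE to TBK1 lies below 1 in the 3 WT libraries and above 1 in the 3 S127A libraries, whereas ADAR to EIF2AK2 overlaps between the groups.

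The WT libraries themselves were not alike in these genes. WT replicate 2 was the lowest WT library for 8 of the 10 members, against 36.8% of all tested genes. It lay below the mean of the other WT libraries by 29.6% for ZBP1, 26.4% for DHX58, 20.6% for DDX58 and 6.52% for IFIH1. The 2 exceptions were MAVS and IKBKE, for which replicate 2 was the highest WT library. Among the partner genes for interferon receptors and interferon output, replicate 2 was the lowest WT library for 15 of 18 tested. Without this library the log2 difference of DDX58 was 1.12 and that of TBK1 0.43, and all 10 members still passed the test. In the other group, S127A replicate 2 was the lowest S127A library for 7 of the 10 members, against 34.5% of all tested genes.

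Promoters were read for the members from RefSeq windows (build GRCm38.p6, 250 bases before to 50 after a start site). Windows were found for 8 of 10 members, 10 windows in all. DHX58 and ZBP1 have no entry. Each window was searched on both strands for the core of the interferon-stimulated response element (GAAA, any 2 bases, then GAAA), for a form of the NF-kB site (GGG, any 2 bases, then TTTCC) and for the E-box CACGTG, which MITF and other factors bind. The response element core was in the windows of Ddx58, Ifih1 and Eif2ak2, 3 of 8 genes, against 3.47% of the 7929 tested genes with a window (3.44% of all 32851 windows). No member window held the NF-kB form, which 1.99% of those tested genes held (1.63% of all windows). The E-box was in the windows of Tbk1 and Trim25, 2 of 8 genes, against 12.2% of those tested genes (7.15% of all windows). Each of these windows held 1 match and no matches overlapped.

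The stretches of 30 bases around each match are shown because they carry the only motif matches among the members, with the match in capitals, 5′ to 3′ on the strand of the gene. They lie at chr4:40239804-40239833 (Ddx58), chr2:62646206-62646235 (Ifih1), chr17:78882535-78882564 (Eif2ak2), chr10:121586772-121586801 (Tbk1) and chr11:88999343-88999372 (Trim25), the last on the plus strand and the others on the minus strand.
Ddx58: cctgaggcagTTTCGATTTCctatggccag
Ifih1: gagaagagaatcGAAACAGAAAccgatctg
Eif2ak2: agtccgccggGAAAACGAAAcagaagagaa
Tbk1: cccgcactcggtCACGTGctccgtggcccg
Trim25: cccccagggaccCACGTGacttcctgaagc
In Ddx58 the core reads on the opposite strand. It begins at base 3 of the transcribed part in Ddx58, at base 33 in Ifih1 and at base 19 in Eif2ak2. The E-box begins at base 6 in Tbk1 and 48 bases before the start in Trim25. Ddx58, Ifih1 and Eif2ak2, with the core, rose 2.35-fold, 3.24-fold and 1.96-fold. The 5 members whose windows held no exact match rose 1.40-fold (Tbk1), 1.87-fold (Mavs), 1.92-fold (Adar), 7.17-fold (Trim25) and 7.55-fold (Ikbke). Forms that differ from the searched letters were not counted, and DHX58 and ZBP1 had no window. Whether the core goes with the size of the rise was not tested. A match is a string of letters and not a measured site.

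Genes that work with the members were read from 7 lists. Each count below stands beside 40.2% of all tested genes called higher and 49.8% called lower, with a median log2 difference of −0.12. Whether a list differs from these shares was not tested. Of 20 tested partners of RIG-I-like receptor (RLR) signalling, 11 were higher and 7 lower (median log2 difference 0.15). TRAF3, the ubiquitin ligase recruited by MAVS, fell from 52.2 ± 0.179 to 23.5 ± 0.665 TPM, and TANK, a scaffold of TBK1 and IKKε, from 90.1 ± 2.54 to 55.8 ± 1.18 TPM. IRF7, the inducible interferon factor that these kinases phosphorylate, rose from 4.31 ± 1.01 to 304 ± 11.3 TPM. IRF3, the constitutive one, went from 48.5 ± 1.67 to 42.9 ± 3.63 TPM (log2 difference −0.17, adjusted p = 0.0157), which no longer passed with TMM scaling (adjusted p = 0.368) or in 4 other settings. RNF135, a RIG-I ubiquitin ligase, fell from 12.1 ± 0.14 to 9.22 ± 0.617 TPM.

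Of 18 tested negative regulators of the receptors, 6 were higher and 10 lower, with a median of −0.20. NLRX1, a mitochondrial protein described as restraining MAVS, had 3.89 ± 0.206 TPM in WT against 3.46 ± 0.185 in S127A and did not pass (adjusted p = 0.0945). Its difference turned with quantile normalization. RNF125, CGAS and STING1 were looked for and not found under the symbols searched.

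Other nucleic acid sensors were higher for 9 of 18 and lower for 7 (median 0.16). With TMM factors 11 were higher and 5 lower, beside 44.9% and 44.8% of all tested genes. TLR3, the endosomal receptor for double-stranded RNA, rose from 12.7 ± 1.13 to 26.6 ± 1.46 TPM, while its adaptor TICAM1 fell from 36.1 ± 0.396 to 10.2 ± 0.908 TPM. At MAVS, by contrast, adaptor and receptors all rose.

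The list of OAS and double-stranded RNA-binding proteins had 8 of 19 higher and 7 lower (median 0.01). OAS2, which makes short oligoadenylates when it binds double-stranded RNA, rose from 1.33 ± 0.342 to 120 ± 5.96 TPM. PRKRA, a protein activator of PKR, fell from 37.6 ± 1.37 to 20.5 ± 1.38 TPM, opposite to PKR. ADARB1, the second editing enzyme, was at 2.49 ± 0.226 and 2.13 ± 0.215 TPM and did not pass (adjusted p = 0.0935), and its difference also turned with quantile normalization.

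PKR is 1 of several kinases of eIF2. In the list of eIF2 and its kinases, 5 of 16 were higher and 11 lower (median −0.52). EIF2AK3, the kinase of endoplasmic reticulum stress, fell from 66.1 ± 0.53 to 19.3 ± 0.346 TPM, and EIF2AK4, the kinase of amino acid shortage, from 23.0 ± 0.931 to 12.6 ± 0.556 TPM. PKR, at 111 TPM, rose in the same libraries. EIF2S1, the subunit that all of them phosphorylate, was at 157 ± 6.9 and 135 ± 8.71 TPM (log2 difference −0.22, adjusted p = 0.00122), which did not pass with TMM scaling (adjusted p = 0.0645) or quantile normalization (adjusted p = 0.286).

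The partners of ZBP1 in cell death were higher for 6 of 10 tested and lower for 3 (median 0.50). RIPK1 rose from 22.6 ± 1.25 to 29.4 ± 0.837 TPM. MLKL, which executes necroptosis, rose from 88.5 ± 5.75 to 143 ± 5.84 TPM. RIPK3, the kinase between ZBP1 and MLKL, was listed at 0, 0 and 0.04 TPM in WT and at 0 in the 3 S127A libraries, so ZBP1 was high in libraries in which RIPK3 was listed at 0.

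Of 18 tested genes for interferon receptors and output, 12 were higher and 5 lower (median 0.91). At least 2-fold, 9 rose and 2 fell, against 15.5% and 19.9% of all tested genes. IFNB1, the interferon gene at the end of the MAVS pathway, was below the level tested, with 0.16, 0.16 and 0 TPM in WT and 0, 0.16 and 0.49 TPM in S127A. IFNAR1, a receptor subunit, fell from 34.1 ± 0.762 to 28.9 ± 0.823 TPM. IRF9, a factor that acts downstream of the interferon receptors, rose from 26.0 ± 2.69 to 72.6 ± 2.75 TPM and ISG15, a ubiquitin-like modifier, from 59.6 ± 10.9 to 427 ± 18.7 TPM. Other outputs, named after their values were seen, fell: CXCL10, a chemokine, from 241 ± 18.3 to 58.3 ± 1.04 TPM, RSAD2, an antiviral enzyme, from 36.4 ± 6.38 to 15.8 ± 1.41 TPM, and IFIT2, an RNA-binding antiviral protein, from 58.3 ± 3.17 to 35.2 ± 2.26 TPM. The members were high in libraries in which IFNB1 was under 0.5 TPM. IFNA1 and IFNL3, and the outputs IFIT1, MX1, MX2 and BST2, were not found under the symbols searched, so no other interferon gene was read. The part of interferon in the member levels was not tested.

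**Figure D4:**
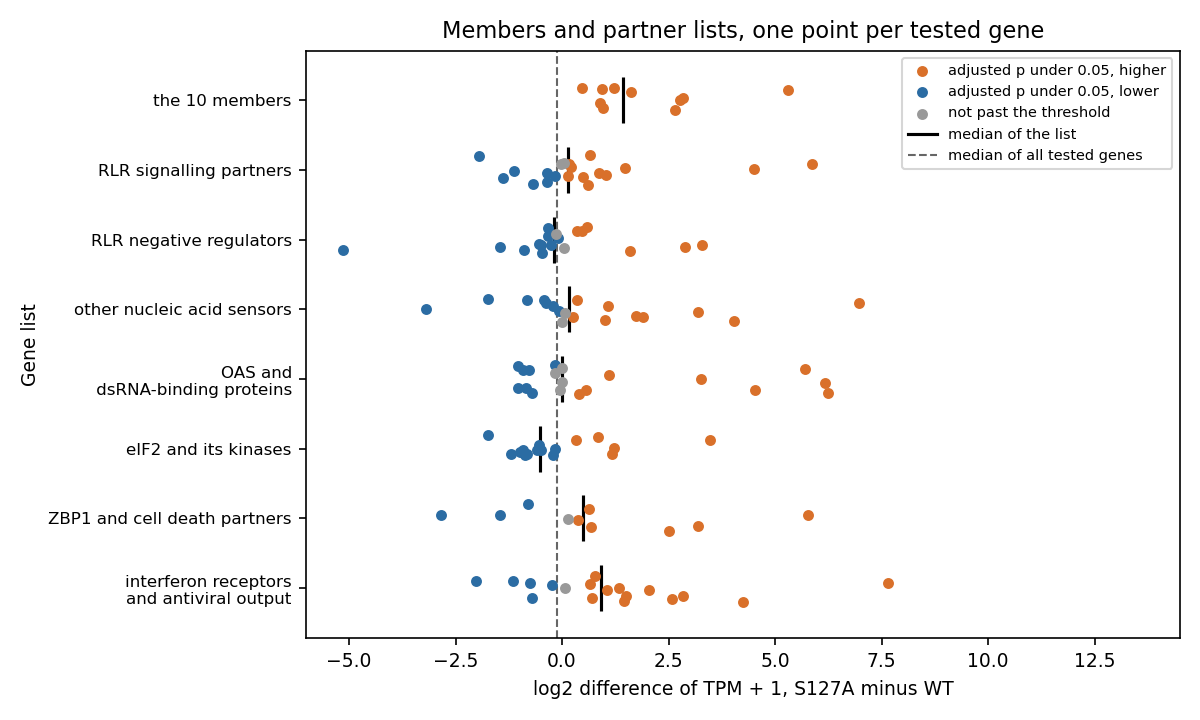
Log2 difference of TPM + 1 (S127A minus WT), 1 point per tested gene, for the 10 members and the 7 partner lists, coloured by the call of limma, with a bar at each list's median and a dashed line at −0.12, the median of all tested genes. The members lie to the right of 0, while each partner list holds genes called in both directions.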

How the data were processed

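Titles gave the group and replicate number of the 3 WT and 3 S127A RNA-seq libraries. TRIzol-extracted total RNA was primed with random hexamers, per the labels' protocols. Values are TPM under upper-case gene symbols, 1 column per library, as deposited by the authors and per the file headers. The submitters' processing notes name genome build mm10. Which aligner, quantifier, annotation and strand setting were used was not given in the sources.

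Genes with a mean of at least 1 TPM were fitted on log2(TPM + 1) with limma 3.58.1 in R 4.3.3 (lmFit, eBayes with trend, genotype as the only term), two-sided. The fit was tested on simulated data in which few genes changed. That test does not cover the case met here, where most genes differ. TPM are not counts, so no count test was made. Exact permutation tests used scipy 1.17.1. Gene positions and overlaps come from GENCODE on mm10, and promoter sequences from RefSeq on GRCm38.p6. Each column summed to between 830745 and 864529 TPM, so part of each library lies outside the table.

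The members and lists were chosen with earlier results of these data known. Named genes were the 10 members and 26 partners (23 found in the table), whatever their values. Some of these are not reported here. Alternatives were 2 other pseudocounts (0.1 and 5), no filter or a mean of 5 TPM, TMM factors (trimmed mean of log ratios, computed on TPM), quantile normalization, a common total, no trend, robust hyperparameters, identical symbols counted once, a replicate block, leaving out each library, and ratios of TPM + 1.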

Additional observations from a re-analysis of the deposited data

How the results depend on the processing

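All 10 members stayed higher and past the threshold in each of the 17 alternative fits, with adjusted p (limma) up to 9.35e-05 for TBK1. TMM factors moved the median of all tested genes by 0.12 and the members with it (TBK1 to 0.60, MAVS to 1.01), with 44.9% of tested genes called higher. NLRX1 turned to 0.19 (adjusted p = 0.0292) and ADARB1 to 0.22 (adjusted p = 0.0238) with quantile normalization; the cause was not tested. NLRX1 passed with no trend (−0.13, adjusted p = 0.0333). IRF3 no longer passed with quantile normalization (−0.11, adjusted p = 0.11), with a common total (−0.12, adjusted p = 0.0703), or when WT replicate 3 (adjusted p = 0.0606) or S127A replicate 1 (adjusted p = 0.053) was left out. The log2 difference of the ADAR to EIF2AK2 ratio (−0.0269) ran from −0.0906 to 0.0377 with single libraries left out.

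The replicate block, in which the number in the title is a term, changed no call of a member (TBK1 0.48, adjusted p = 1.46e-06) and gave 9339 calls in all genes against 9315. Same-numbered libraries correlated in their deviations at 0.117, 0.0174 and 0.0279, and not every library correlated best with its own number, so the numbers were not taken as pairs. The unknown depth limits the precision for ZBP1, RIPK3 and IFNB1, which lie under 1 TPM in WT.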

Other observations

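Some partners of other nucleic acid sensing routes moved against the sensor they serve. They were named after their values were seen. UNC93B1, the chaperone that carries the endosomal Toll-like receptors, fell from 8.66 ± 0.349 to 0.06 ± 0.06 TPM (limma adjusted p = 1.12e-11), while TLR7, which depends on it, rose from 2.06 ± 0.399 to 5.40 ± 0.163 TPM. The DNA sensor AIM2 rose from 1.79 ± 0.375 to 44.3 ± 0.575 TPM and CASP1, the protease of inflammasomes, from 0.133 ± 0.0924 to 60.9 ± 6.59 TPM. PYCARD, the adaptor that joins AIM2 to CASP1, fell from 7.3 ± 0.284 to 0.15 ± 0.0693 TPM. Others in the same lists, also named after their values were seen, moved with TLR7 and AIM2. MYD88, an adaptor of Toll-like receptors, rose from 17.6 ± 0.877 to 60.6 ± 3.09 TPM, and GSDMD from 5.07 ± 0.58 to 33.5 ± 2.81 TPM.

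TRIM14, an adaptor of MAVS in the RLR list, stood at 5563 ± 166 TPM in WT, the rank of 6 in the whole table, and at 1437 ± 13.4 TPM in S127A, rank 78. No other symbol shared its values.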
